A study of Danio rerio with 24 samples.

Results

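Normal development between 12 and 18 hours post-fertilization (hpf) was described in zebrafish embryos whose parents were fed a vitamin E sufficient (E+) diet. The 4 E+ 18 hpf pools were compared with the 4 E+ 12 hpf pools, which were 8 of the 24 pools of the series. The other 16 pools were E– (vitamin E deficient) embryos at 12, 18 and 24 hpf and E+ embryos at 24 hpf, with 4 pools in each of the 6 groups. All embryos were of the Tropical 5D strain, came from group spawning of adults on one of the diets, carried no stated transgene or mutation, and were chosen as morphologically normal. Each pool held 10 whole embryos, and the library kit read only the 3′ ends of polyadenylated mRNA. Pools were not tied to single parents, so p-values measure the spread between pools of embryos. In whole embryos, fewer cells of a type and less RNA per cell cannot be told apart.

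The 6 hours compared fall within the period in which the zebrafish trunk is cut into somites, the blocks of mesoderm that become muscle and vertebrae. An oscillating gene network in the unsegmented mesoderm of the tail bud, the segmentation clock, sets the pace of somite formation, and cells that leave the tail bud switch to the muscle programme. During the same period the heart and blood lineages differentiate, the eye cup and ear form, the first neurons send out axons and the notochord lays down its sheath.

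Pools held between 12361569 and 19733049 gene counts at E+ 18 hpf and between 16175070 and 20973407 at E+ 12 hpf, so that 1 CPM (1 count per 1000000, on scaled library sizes) stood for about 12 to 21 reads. No replicate pool repeated another (chi-square of the counts of at least 5.23 per degree of freedom, where sampling noise gives about 1), and each was counted as 1 sample. E+ 18 hpf replicate 2 had 13.2% unmapped reads, against 9.09% to 9.26% in the other E+ 18 hpf pools. A single gene without a symbol, ENSDARG00000080337, took 30.8% ± 1.87 of gene counts at E+ 18 hpf and 35.6% ± 1.43 at E+ 12 hpf (SD, n = 4 each; exact permutation p = 0.0286, the smallest that 4 against 4 pools allow, and 0.0571 after Benjamini–Hochberg adjustment over 6 pool-level measures). Distances between pools were root mean square log2 differences over the 500 genes that differed most in each pair, not over typical genes. By this measure E+ 18 hpf pools lay 3.56 log2 units from E+ 12 hpf pools on average (3.22 to 4.15). The average was 2.28 among E+ 18 hpf pools and 2.48 among E+ 12 hpf pools.

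The E+ 12 hpf pools were not alike over genes that changed in the same step of E– embryos. In E– embryos 2283 genes were at least 2-fold higher at 18 hpf. The contrast that chose them compared no E+ pool, but the gene filter, scaling and spread came from the fit of all pools. Over these genes the mean log2(CPM + 1) was 2.65, 2.66, 2.69 and 2.62 in the E+ 18 hpf pools and 1.65, 1.36, 1.49 and 1.59 in the E+ 12 hpf pools. E+ 12 hpf replicate 1 had the highest value of its group for 917 of these genes, against 324, 439 and 593 for replicates 2, 3 and 4. E+ 12 hpf replicate 2 had the lowest for 955, against 352, 527 and 316 for replicates 1, 3 and 4. Over 984 genes that were at least 2-fold lower at 18 hpf in E– embryos, replicate 2 was the highest of the E+ 12 hpf pools for 418 and replicate 1 the lowest for 333. The other pools were the highest for 173 to 208 and the lowest for 143 to 258. The cause of this spread was not tested, and its part in single results was not tested beyond leaving out each pool in turn.

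Of 19597 genes tested with edgeR's quasi-likelihood F-test, 4475 (22.8%) rose and 4134 (21.1%) fell at 18 hpf in E+ embryos (Benjamini–Hochberg FDR under 0.1). Increases were more often large: 2253 genes (11.5%) were at least 2-fold higher and 1190 (6.07%) at least 2-fold lower. The median log2FC of all genes was 0.02, but the scaling holds it near no change, so all changes are relative to other genes. The 4 E+ 18 hpf pools lay all above the 4 E+ 12 hpf pools for 3445 genes (17.6%). They lay all below them for 3298 (16.8%). Genes named below for the size of their change had to lack overlap between these groups, so its absence was fixed by their choice. Leaving out E+ 12 hpf replicate 1 gave 4431 higher and 3934 lower genes, and leaving out E+ 12 hpf replicate 2 gave 4114 and 3823. The groups of genes below are lists of developmental genes chosen with earlier results of these data known, so their counts stand beside these percentages as a description and are partly fixed by the choice. Capital letters mark genes for which the symbol available was that of the human counterpart, and a gene identifier is added where several zebrafish genes share it.

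**Figure D1:**
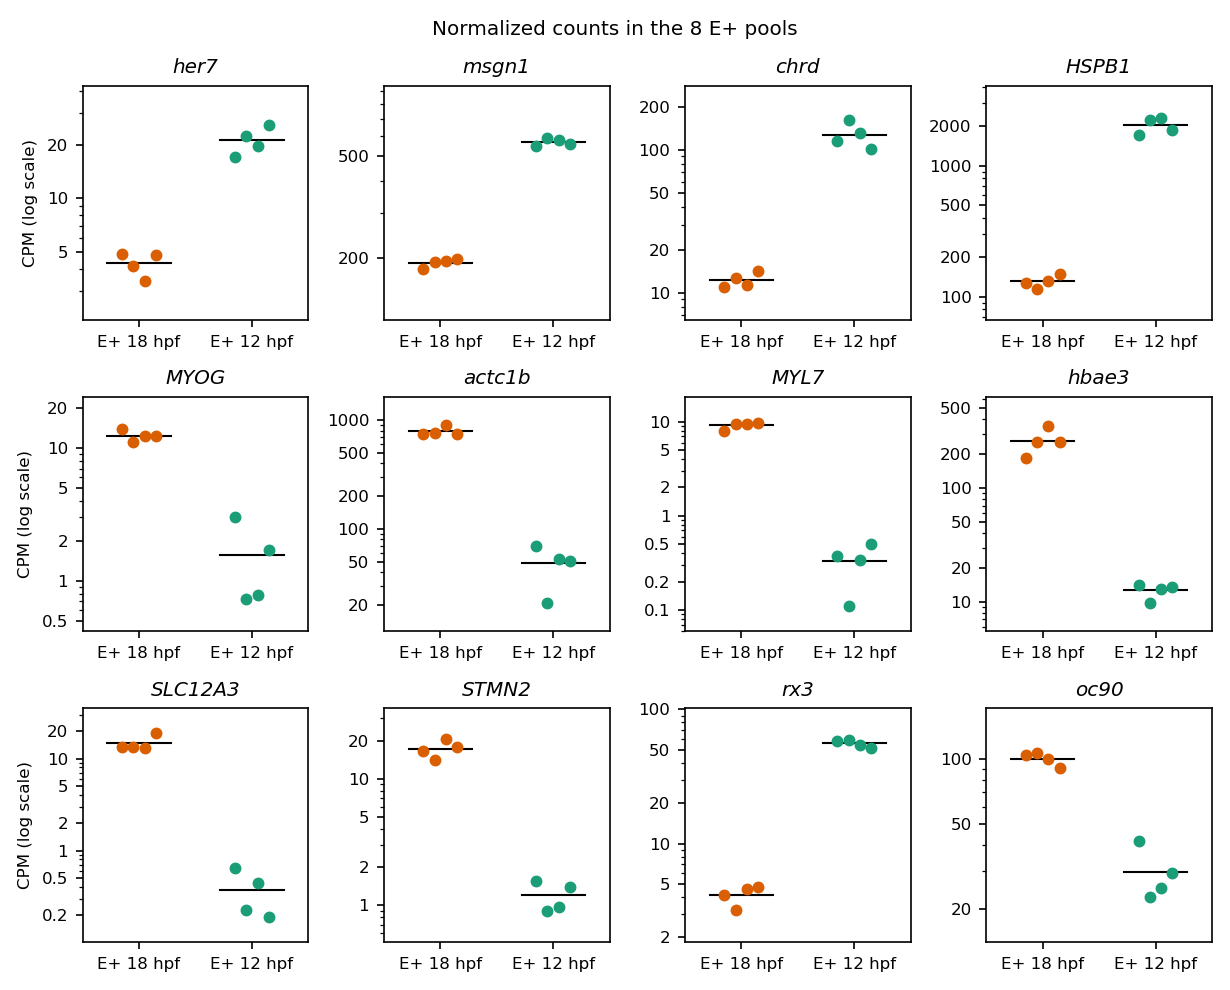
Normalized counts (CPM, log scale) of 12 genes in each E+ 18 hpf pool (orange, left) and E+ 12 hpf pool (green, right), with the mean as a bar. None of the 12 genes had overlapping groups, which the rule that named several of them asked for. The genes her7, msgn1, chrd, HSPB1 and rx3 had the lower values at 18 hpf.

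Genes of the segmentation clock and the unsegmented mesoderm mostly fell. Of 32 such genes tested, 22 fell and 4 rose, with a median log2FC of -1.15. The clock gene her7, a repressor that switches itself off in cycles, had 4.82, 4.13, 3.40 and 4.81 CPM at E+ 18 hpf, against 17.1, 22.5, 19.6 and 25.8 CPM at E+ 12 hpf (log2FC -2.31 ± 0.21 (SE), FDR 2.95e-11). Its partner her1 had 1.09, 1.32, 1.01 and 1.69 CPM at E+ 18 hpf, against 11.6, 7.02, 6.87 and 4.86 CPM at E+ 12 hpf (log2FC -2.56 ± 0.40). Both clock genes were lower in every E+ 18 hpf pool than in any E+ 12 hpf pool, and E+ 12 hpf replicate 1 held the highest her1 but the lowest her7 value of its group. The T-box factors tbx16 and tbx6 and the factor msgn1 keep tail bud cells in a mesodermal state before they join a somite. For msgn1 the values were 181, 192, 194 and 198 CPM at E+ 18 hpf, against 545, 590, 578 and 555 CPM at E+ 12 hpf (log2FC -1.57 ± 0.09, FDR 3.79e-16). The tbx6 level was 36.4 to 43.7 CPM at E+ 18 hpf and 98.0 to 117 CPM at E+ 12 hpf, and that of tbx16 was 39.0 to 42.1 CPM against 138 to 158 CPM. All 3 factors were thus still well above the detection limit at 18 hpf, and at 24 hpf E+ pools averaged 28.5 CPM for msgn1, 10.4 for tbx6 and 8.53 for tbx16. The gene mespba, which sets the front part of each new somite, was near 1 CPM at E+ 18 hpf (0.289 to 1.09 CPM, against 3.36 to 4.68 CPM at E+ 12 hpf; log2FC -2.36 ± 0.42).

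Of the 4 members that rose, 2 shared a symbol with a gene that fell. Both UNCX genes, homeobox factors of the rear part of formed somites, were higher, and UNCX ENSDARG00000102976 had 20.7, 21.3, 19.0 and 17.0 CPM at E+ 18 hpf, against 4.92, 2.06, 1.90 and 3.16 CPM at E+ 12 hpf (6.49-fold, FDR 1.12e-12). HES6 encodes a partner of Her proteins in the zebrafish clock: HES6 ENSDARG00000007097 rose (log2FC 1.01) and HES6 ENSDARG00000019335 fell (log2FC -1.31). FGF8 is a growth factor of the tail bud and of the midbrain-hindbrain boundary: FGF8 ENSDARG00000039615 rose (log2FC 2.69) and FGF8 ENSDARG00000003399 fell (log2FC -3.77). Neither FGF8 gene had both at least 5 CPM in every pool of its higher group and groups without overlap, so these folds are less certain. In the whole list, 2 genes had all E+ 18 hpf pools above all E+ 12 hpf pools. With only the pools of sequencing lane 8 in the fit, 1 member of the list rose.

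Genes of gastrula signalling and axis formation fell almost without exception. The list held 30 tested genes, of which 28 fell, none rose and 2 were not called (ndr2 and CXCR4 ENSDARG00000041959), with a median log2FC of -1.69. Without E+ 18 hpf replicate 4, 1 member rose. The organizer protein chrd, which binds Bmp ligands and keeps them from their receptors, had 11.0, 12.6, 11.3 and 14.2 CPM at E+ 18 hpf, against 116, 163, 131 and 102 CPM at E+ 12 hpf (log2FC -3.38 ± 0.14, FDR 8.37e-20). The organizer homeobox gene GSC was almost silent at E+ 18 hpf, with 0.155, 0.0530, 0.0723 and 0.325 CPM, against 8.13, 19.3, 9.64 and 8.46 CPM at E+ 12 hpf (log2FC -6.19 ± 0.59). E+ 12 hpf replicate 2 had the highest value of both genes. On the ventral side, szl, a secreted regulator of the chordin-cleaving proteases, was at 0.260 to 0.636 CPM at E+ 18 hpf and 15.3 to 23.4 CPM at E+ 12 hpf (log2FC -5.53 ± 0.39). Of the Bmp ligand genes, BMP2 ENSDARG00000041430 was at 12.3 to 16.5 CPM at E+ 18 hpf and 30.8 to 35.2 CPM at E+ 12 hpf (log2FC -1.19 ± 0.14), and BMP2 ENSDARG00000013409 was at 1.64 to 1.82 CPM against 3.51 to 5.62 CPM (log2FC -1.36 ± 0.27). The pluripotency factor pou5f3, a relative of mammalian Oct4, was at 7.07, 6.94, 7.09 and 5.39 CPM at E+ 18 hpf, against 17.1, 33.7, 24.5 and 24.5 CPM at E+ 12 hpf (log2FC -1.91 ± 0.32). Other steep falls over all genes tested included early patterning genes. The Wnt-binding protein gene frzb was at 1.01 to 2.03 CPM against 14.3 to 38.3 CPM (log2FC -4.08 ± 0.32), the caudal factor cdx1a at 0.940 to 2.92 CPM against 55.1 to 77.4 CPM (log2FC -4.97 ± 0.27), and the secreted mesoderm factor pnhd at 1.17 to 1.87 CPM against 19.1 to 30.8 CPM (log2FC -3.99 ± 0.39), each at E+ 18 hpf against E+ 12 hpf. The MAP kinase phosphatase gene DUSP2 was at 0.311 to 0.689 CPM at E+ 18 hpf, against 8.97 to 11.6 CPM at E+ 12 hpf (log2FC -4.29 ± 0.31), the lipoxygenase gene alox5b.3 fell (log2FC -3.64 ± 0.34) and ifi27.1 fell as well (log2FC -3.59 ± 0.40).

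The muscle programme moved the opposite way. Among 26 tested skeletal muscle regulators 16 rose and 7 fell (median log2FC 1.02), and among 69 contractile and excitation genes 55 rose and 2 fell (median 2.30). MYF5, the factor that acts first in muscle precursors, was at 13.6, 16.8, 16.9 and 13.3 CPM at E+ 18 hpf, against 43.0, 30.3, 35.0 and 36.1 CPM at E+ 12 hpf (log2FC -1.25 ± 0.15, FDR 1.08e-08). MYOD1, which commits cells to muscle, was at 48.0, 50.7, 50.6 and 43.7 CPM at E+ 18 hpf, against 27.3, 17.6, 19.3 and 19.6 CPM at E+ 12 hpf (log2FC 1.20 ± 0.12). MYOG, the factor of terminal differentiation, was at 13.9, 11.1, 12.3 and 12.3 CPM at E+ 18 hpf, against 3.00, 0.724, 0.779 and 1.71 CPM at E+ 12 hpf (log2FC 3.00 ± 0.29, FDR 1.12e-10). Among these 3 factors the early one was thus lower and the later ones higher in every E+ 18 hpf pool than in any E+ 12 hpf pool. MYMK, the membrane protein that fuses myoblasts into fibres, was 3.86 ± 0.25 log2 units higher (16.4 to 20.2 CPM against 0.613 to 2.08 CPM), and MEF2C ENSDARG00000029764, a partner of the myogenic factors in the muscle and heart, 3.58 ± 0.14 higher (48.8 to 62.2 CPM against 3.12 to 6.79 CPM). Of the falling regulators, lbx2 (log2FC -1.83 ± 0.22) marks precursors that leave the somite in zebrafish, and six4b (log2FC -1.23 ± 0.21) encodes a homeobox factor of placodes and muscle precursors.

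Sarcomere genes reached high levels. The actin gene actc1b was at 741, 759, 903 and 752 CPM at E+ 18 hpf, against 68.9, 20.6, 52.7 and 50.9 CPM at E+ 12 hpf (log2FC 4.03 ± 0.23, FDR 1.20e-16). The slow myosin heavy chain smyhc1 was at 452, 460, 498 and 450 CPM at E+ 18 hpf, against 78.7, 13.4, 22.8 and 57.0 CPM at E+ 12 hpf (log2FC 3.44 ± 0.28). Groups did not overlap for either gene, and E+ 12 hpf replicate 1 had the highest and replicate 2 the lowest value of their group for both. The E+ 12 hpf pools of smyhc1 spanned several fold while the E+ 18 hpf pools were close together. The fast myosin light chain MYL11 ENSDARG00000053254 was at 230, 216, 288 and 243 CPM at E+ 18 hpf, against 11.4, 7.91, 25.5 and 13.7 CPM at E+ 12 hpf (log2FC 4.05 ± 0.27), its copy MYL11 ENSDARG00000002589 was at 3.92 to 6.15 CPM against 0.446 to 1.39 CPM (log2FC 2.43 ± 0.24), and the fast myosin heavy chain myhz2 was at 22.4 to 38.3 CPM against 0.856 to 3.80 CPM (log2FC 4.00 ± 0.32). In E+ 24 hpf pools the means were 2103 CPM for the first of these MYL11 genes, 292 CPM for myhz2 and 659 CPM for smyhc1. Both RYR1 genes, calcium release channels of muscle, rose: ENSDARG00000023797 was at 50.2 to 59.7 CPM against 10.7 to 13.5 CPM (log2FC 2.26 ± 0.11) and ENSDARG00000011422 at 13.5 to 15.5 CPM against 3.01 to 5.18 CPM (log2FC 1.89 ± 0.16). Both ACTA1 genes rose (log2FC 2.59 ± 0.22 for ENSDARG00000036371 and 4.12 ± 0.40 for ENSDARG00000055618, which stayed at 2.18 to 3.44 CPM). Any read that matched both genes would not have been counted for either. As a share of gene counts, the contractile list took 0.649% ± 0.0433 at E+ 18 hpf and 0.300% ± 0.0228 at E+ 12 hpf (SD, n = 4 each; exact two-sided permutation p = 0.0286, adjusted 0.0571), and the difference was 0.345 percentage points on lane 7 and 0.351 on lane 8. The list was chosen with earlier results of these data known, so this p, the smallest that 4 against 4 pools allow, is no independent support. The same list includes the heat shock gene HSPB1, which averaged 131 CPM at E+ 18 hpf and 2032 CPM at E+ 12 hpf. At 12 hpf actc1b averaged 48.3 CPM, so the share at 12 hpf is not a share of sarcomere genes.

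HSPB1 and TNNI2 ENSDARG00000029995 were the contractile list's 2 members that fell. HSPB1 encodes a small heat shock protein of muscle and other tissues and was the gene with the smallest FDR among those named: 128, 115, 132 and 148 CPM at E+ 18 hpf, against 1713, 2216, 2320 and 1878 CPM at E+ 12 hpf (log2FC -3.96 ± 0.12, FDR 5.79e-23). This TNNI2 gene (log2FC -1.93) is one of several fast troponin I genes under its symbol, of which ENSDARG00000029069 (log2FC 1.02) and ENSDARG00000035958 (log2FC 2.80) rose. The E+ 18 hpf pools of the falling TNNI2 gene did not all lie below its E+ 12 hpf pools. On lane 8 alone, with only the 8 pools fitted and with genes averaging at least 10 counts, 1 member of the list fell. The same count was given without E+ 12 hpf replicate 2, E+ 18 hpf replicate 1 or E+ 18 hpf replicate 2. The cadherin gene CDH15, a cell adhesion molecule of fusing muscle cells in mammals, was at 20.3, 23.6, 20.7 and 19.5 CPM at E+ 18 hpf, against 0.856, 0.557, 0.244 and 1.20 CPM at E+ 12 hpf (log2FC 4.91 ± 0.27). CAVIN1 ENSDARG00000059362, which coats the membrane pits called caveolae, was 4.51 ± 0.29 log2 units higher and never above 0.633 CPM in an E+ 12 hpf pool.

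Of 25 heart genes tested, 11 rose and 5 fell (median log2FC 0.30), and on lane 7 alone 3 fell. The cardiac myosin light chain MYL7 was at 8.01, 9.53, 9.48 and 9.75 CPM at E+ 18 hpf, against 0.374, 0.111, 0.341 and 0.505 CPM at E+ 12 hpf (log2FC 4.77 ± 0.26, FDR 6.28e-17). The light chain cmlc1 was at 8.71 to 12.4 CPM against 0.160 to 0.316 CPM (log2FC 5.30 ± 0.25), and the heavy chain gene MYH6 ENSDARG00000079564 at 31.3 to 40.9 CPM against 1.00 to 1.61 CPM (log2FC 4.75 ± 0.19). These cardiac genes were close to silent at 12 hpf in all 4 pools. The thin filament genes TNNT2 ENSDARG00000020610 (log2FC 3.47 ± 0.21) and TNNI1 (log2FC 3.67 ± 0.28) rose as well, while TNNT2 ENSDARG00000100694 was at most at 1.00 CPM in every pool and was not called. GATA5 and GATA6, which specify heart and endoderm, fell: GATA6 was at 16.5 to 22.1 CPM at E+ 18 hpf, against 48.1 to 64.5 CPM at E+ 12 hpf (log2FC -1.48 ± 0.15), and GATA5 at 15.1 to 19.1 CPM against 38.7 to 47.4 CPM (log2FC -1.29 ± 0.14). The adhesion molecule gene ALCAM was lower as well (log2FC -0.50 ± 0.10). For NKX2-5, the homeobox factor of heart precursors, the values were 1.87, 3.07, 1.59 and 1.69 CPM at E+ 18 hpf and 2.19, 2.01, 1.46 and 1.20 CPM at E+ 12 hpf. The NKX2-5 groups overlapped and no difference was detected at this depth (log2FC 0.27 ± 0.35, FDR 0.593).

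Globin and heme genes of primitive red cells rose. Of 44 genes tested 32 rose and 3 fell (median log2FC 1.09). The embryonic alpha globin hbae3 was at 183, 252, 351 and 253 CPM at E+ 18 hpf, against 9.86 to 14.1 CPM at E+ 12 hpf (log2FC 4.36 ± 0.21, FDR 4.05e-18). Its beta counterpart hbbe3 was at 161, 194, 267 and 217 CPM at E+ 18 hpf, against 11.0, 2.67, 9.74 and 8.78 CPM at E+ 12 hpf (log2FC 4.70 ± 0.29). At 24 hpf hbae3 averaged 883 CPM and hbbe3 621 CPM in E+ pools. Globin levels spread widely among the E+ 18 hpf pools, with replicate 3 highest and replicate 1 lowest for both genes, and no E+ 18 hpf pool came near an E+ 12 hpf pool. Several genes share the symbol HBE1, and reads that matched several places in the genome were tallied apart and not counted for any gene. ENSDARG00000087390, ENSDARG00000113599 and ENSDARG00000115405 had log2FC of 3.42, 4.07 and 3.95. ENSDARG00000045143 was at 1.43 to 2.49 CPM at E+ 18 hpf with no more than 0.126 CPM at E+ 12 hpf. ENSDARG00000069734 was at or below 0.695 CPM in every pool and not called. Of the other alpha globins, hbae1.3 was at 62.7 to 146 CPM against 2.28 to 5.60 CPM (log2FC 4.74 ± 0.28) and hbae5 at 5.07 to 9.84 CPM against 0.0557 to 0.535 CPM (log2FC 4.48 ± 0.36). The erythroid master factor gata1a was at 4.66, 4.87, 7.02 and 5.98 CPM at E+ 18 hpf, against 3.26, 0.390, 0.438 and 1.45 CPM at E+ 12 hpf (log2FC 2.02 ± 0.43, FDR 0.000221), a call that lane 7 pools alone did not give (FDR 0.108). The rate-limiting heme enzyme alas2 was at 7.54 to 9.91 CPM against 1.60 to 3.01 CPM (log2FC 1.76 ± 0.23). The members that fell were cahz, a carbonic anhydrase of red cells (6.89 to 9.75 CPM against 24.6 to 48.0 CPM; log2FC -2.15 ± 0.24), the zinc finger gene znfl2a (log2FC -0.80 ± 0.13) and the repressor gene gfi1aa (log2FC -0.55).

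Among blood vessel genes 16 of 24 rose and 1 fell (median log2FC 1.12). The gene that fell was npas4l, the transcription factor that starts the vessel and blood lineages in zebrafish, at 14.1, 10.3, 10.3 and 12.2 CPM at E+ 18 hpf, against 16.3, 18.8, 15.4 and 16.6 CPM at E+ 12 hpf (log2FC -0.52 ± 0.17, FDR 0.0162; FDR 0.127 in lane 8 pools alone). Among the genes that rose, the VEGF receptor kdrl was at 4.59, 4.40, 3.91 and 3.90 CPM at E+ 18 hpf, against 1.66, 1.45, 0.146 and 0.505 CPM at E+ 12 hpf (log2FC 2.15 ± 0.39), and the junction cadherin cdh5 was at 16.6 to 22.1 CPM against 6.97 to 11.2 CPM (log2FC 1.09 ± 0.15). The endothelial surface lectin clec14a had the largest rise among the vessel genes named (9.75 to 13.9 CPM against 0.223 to 1.87 CPM; log2FC 3.60 ± 0.27), and the vessel adaptor gene she (log2FC 2.32 ± 0.27) and the water channel gene AQP8 (log2FC 2.30 ± 0.27) were among the others. Myeloid genes gave 6 of 22 higher and 3 lower (median 0.54). SPI1, the factor that directs cells to the myeloid fate, was at 8.01, 7.20, 6.44 and 5.13 CPM at E+ 18 hpf, against 4.81, 0, 2.05 and 1.96 CPM at E+ 12 hpf (log2FC 1.59 ± 0.42, FDR 0.00236; FDR 0.112 on lane 7 alone). The actin bundling protein LCP1, a marker of zebrafish leukocytes, went the other way at 0.311, 0.583, 0.289 and 1.30 CPM at E+ 18 hpf, against 4.76, 5.63, 3.80 and 3.28 CPM at E+ 12 hpf (log2FC -2.77 ± 0.45). The factors CEBPA (log2FC -1.14 ± 0.19) and CEBPB (log2FC -0.85 ± 0.14), which act in myeloid cells and other tissues, also fell. The count of rising myeloid genes was 1 on lane 7 alone, 3 with only the 8 pools fitted and 3 without E+ 12 hpf replicate 3 or without E+ 18 hpf replicate 3.

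**Figure D2:**
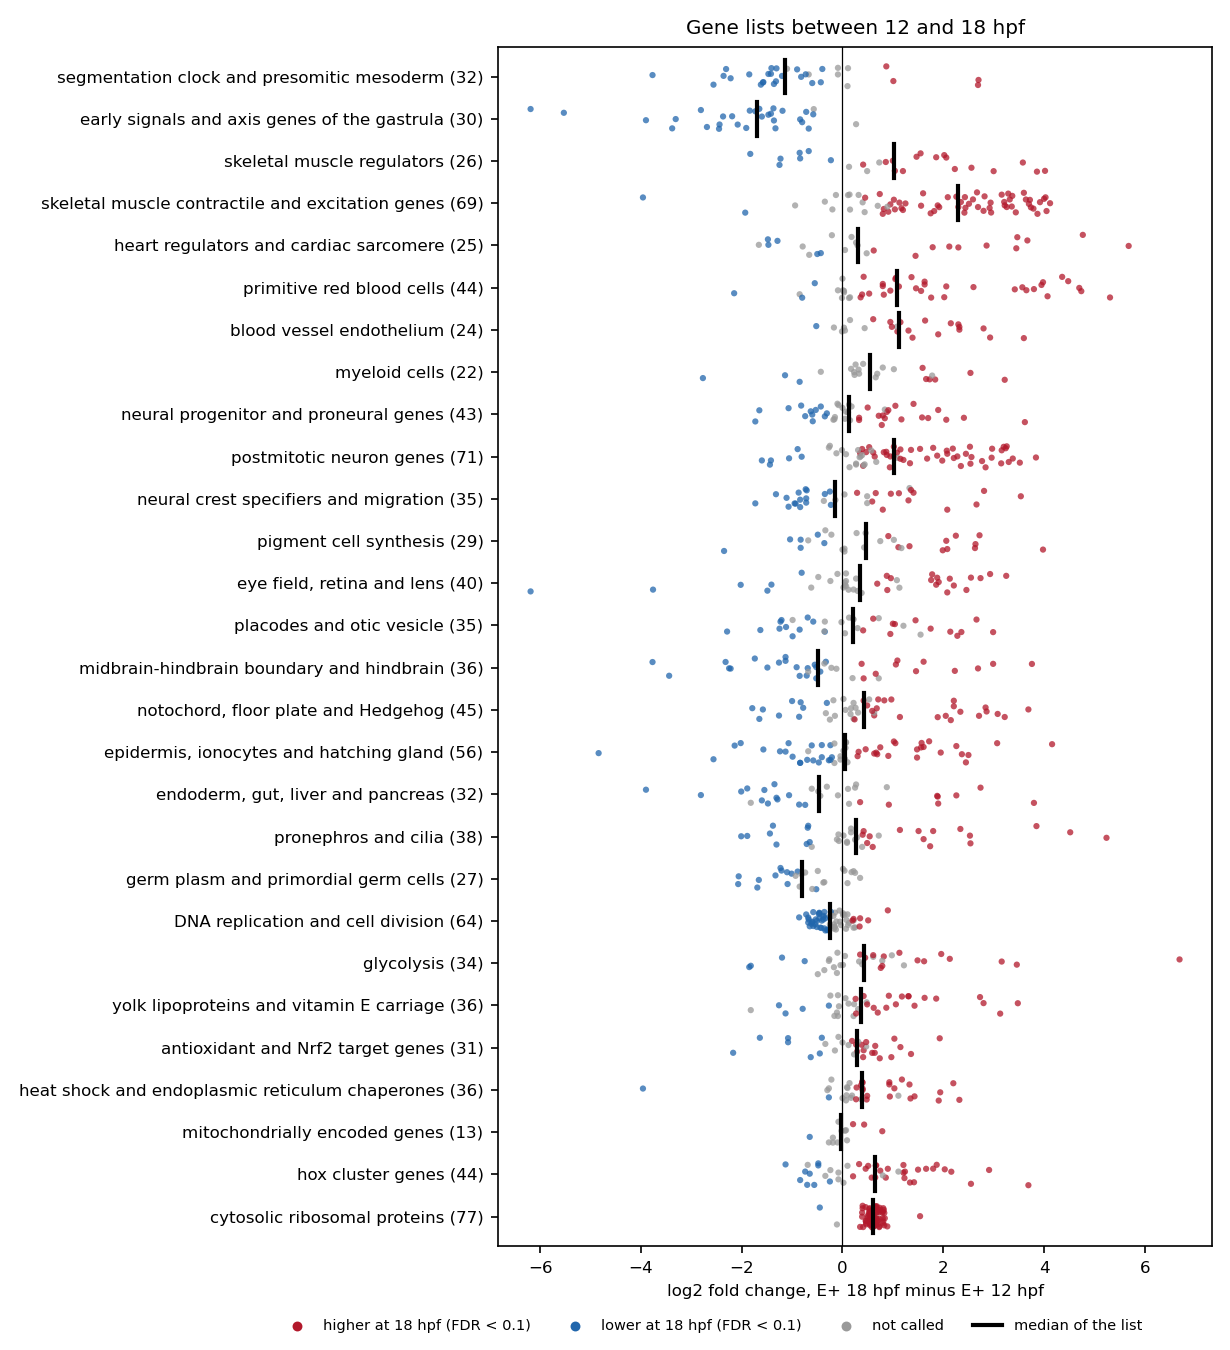
Log2 fold changes (E+ 18 hpf minus E+ 12 hpf) of the members of 28 gene lists, 1 point per gene, with the number tested in parentheses and the median as a bar. Contractile genes had the highest median (2.30) and gastrula signals the lowest (-1.69), and ribosomal protein genes formed a tight cluster around 0.60.

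In the nervous system, neuronal genes rose while progenitor genes moved both ways. Of 71 postmitotic neuron genes 48 rose and 6 fell (median log2FC 1.02). The RNA-binding protein ELAVL3, an early marker of neurons, was at 239, 220, 207 and 212 CPM at E+ 18 hpf, against 122, 70.2, 81.2 and 106 CPM at E+ 12 hpf (log2FC 1.21 ± 0.11, FDR 6.40e-11). Stathmins, which destabilise the microtubules of growing axons, rose by different amounts: STMN2 ENSDARG00000070537 was at 16.6, 14.1, 20.6 and 17.7 CPM at E+ 18 hpf, against 1.55, 0.892, 0.974 and 1.39 CPM at E+ 12 hpf (log2FC 3.84 ± 0.17), STMN1 ENSDARG00000033655 had a log2FC of 3.52 ± 0.22 and STMN1 ENSDARG00000004169 one of 1.08 ± 0.09. The last of these already stood at 113 to 123 CPM at 12 hpf. The synaptic protein gene sncb (log2FC 3.38 ± 0.26) and the vesicular glutamate transporter SLC17A6 ENSDARG00000041150 (6.36 to 8.46 CPM against 1.12 to 2.84 CPM; log2FC 2.08 ± 0.21) were also higher. The gene srrm3, a regulator of splicing in neurons, was among the steepest rises over all genes tested (5.13 to 9.77 CPM against 0.0557 to 0.442 CPM; log2FC 5.10 ± 0.49). Of the ISL2 genes, factors of sensory and motor neurons, ENSDARG00000053499 was at 3.11 to 4.09 CPM against 0.535 to 1.23 CPM (log2FC 1.98 ± 0.27), and ENSDARG00000003971 was at 8.32 to 10.2 CPM and 5.91 to 9.31 CPM and not called (log2FC 0.34 ± 0.17, FDR 0.117; 0.0370 without E+ 12 hpf replicate 1). Of the genes that fell, lhx1a (log2FC -1.44 ± 0.22) and MNX1 (log2FC -1.06 ± 0.24) encode homeobox factors that also act in kidney and endoderm or notochord, and CXCR4 ENSDARG00000057633 (log2FC -1.60 ± 0.25) a chemokine receptor also found in the gastrula.

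Progenitor and proneural genes gave 18 higher and 12 lower of 43 (median log2FC 0.13). Among the genes that rose, the glial filament gene GFAP was at 78.0, 91.1, 75.4 and 90.4 CPM at E+ 18 hpf, against 29.7, 4.96, 10.3 and 18.3 CPM at E+ 12 hpf (log2FC 2.41 ± 0.26), and FABP7 ENSDARG00000007697, a lipid carrier of radial glia, was at 21.3, 39.3, 36.4 and 38.5 CPM against 3.69, 2.01, 3.46 and 1.71 CPM (log2FC 3.62 ± 0.20). E+ 12 hpf replicate 1 had the highest GFAP value of its group and replicate 2 the lowest. The proneural factors differed: ascl1b was higher in every E+ 18 hpf pool (log2FC 1.41 ± 0.15) and NEUROD1 at 13.7 to 19.1 CPM against 2.28 to 5.41 CPM (log2FC 1.90 ± 0.19), whereas neurog1 had overlapping groups with 17.5, 17.4, 21.2 and 22.1 CPM at E+ 18 hpf and 29.2, 26.9, 18.5 and 25.3 CPM at E+ 12 hpf (log2FC -0.35 ± 0.13, FDR 0.0259). That call was lost on lane 8 alone (log2FC -0.01) and without E+ 12 hpf replicate 1 (FDR 0.116). The Notch target her4.1 was modestly higher (log2FC 0.84 ± 0.17), as was the neural plate factor SOX3 at 280 to 306 CPM against 217 to 250 CPM (log2FC 0.33 ± 0.07). Both ZIC2 genes, factors of the dorsal neural plate, fell: ENSDARG00000037178 was at 22.1 to 25.5 CPM against 72.3 to 89.9 CPM (log2FC -1.73 ± 0.13) and ENSDARG00000015554 at 34.1 to 47.7 CPM against 65.0 to 92.2 CPM (log2FC -1.07 ± 0.17). The gene olig4, which acts in the dorsal spinal cord, fell too (log2FC -1.65 ± 0.20).

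Neural crest genes were divided, with 13 higher and 16 lower of 35 (median log2FC -0.14), and genes of pigment cells had 11 higher and 6 lower of 29 (median 0.46; 3 lower on lane 8 alone). SOX10, needed by all non-skeletal crest derivatives, was at 51.9, 57.6, 53.7 and 61.5 CPM at E+ 18 hpf, against 46.1, 22.6, 38.7 and 34.2 CPM at E+ 12 hpf (log2FC 0.66 ± 0.15, FDR 0.000424). The early specifier gene snai1a, a repressor of cell adhesion, was at 18.3 to 20.2 CPM against 41.0 to 55.2 CPM (log2FC -1.32 ± 0.17). FOXD3, another early specifier, had 23.4, 26.1, 18.4 and 23.6 CPM at E+ 18 hpf and 34.2, 28.6, 32.8 and 21.3 CPM at E+ 12 hpf, groups that overlapped (log2FC -0.35 ± 0.13, FDR 0.0261; 0.149 on lane 7 alone, 0.185 on lane 8 alone). The crest factors DLX1 (log2FC 2.66 ± 0.27) and TFAP2B (log2FC 0.80 ± 0.16) were higher and msx3 (log2FC -1.11 ± 0.29) lower, and crestin, a crest marker of zebrafish, was at or below 1.06 CPM in every pool and not called. Of the pigment lineage factors, TFEC was at 8.47, 12.4, 9.91 and 8.77 CPM at E+ 18 hpf, against 0.695, 0.613, 0.779 and 1.33 CPM at E+ 12 hpf (log2FC 3.54 ± 0.34), and MITF ENSDARG00000003732 was at 4.27 to 5.72 CPM against 0.536 to 1.89 CPM (log2FC 2.08 ± 0.27). Of the melanin genes, TYRP1 ENSDARG00000029204 (5.52 to 9.77 CPM against 1.34 to 2.09 CPM; log2FC 1.99 ± 0.21) and pmela (5.56 to 8.54 CPM against 1.80 to 3.73 CPM; log2FC 1.33 ± 0.21) were higher. The channel gene trpm1b, a melanophore marker, rose too (log2FC 2.25 ± 0.22), while the purine synthesis genes GART (log2FC -0.83 ± 0.15) and PAICS (log2FC -0.49 ± 0.09) and the proton pump gene ATP6V0C ENSDARG00000036577 fell (log2FC -0.83 ± 0.14). DCT, the enzyme of an intermediate step, was uneven at E+ 18 hpf, with 0.466, 1.11, 1.88 and 3.83 CPM against 1.18, 0.947, 1.27 and 0.947 CPM at E+ 12 hpf, and was not called (log2FC 0.75 ± 0.40, FDR 0.146), although it passed without E+ 18 hpf replicate 1 (FDR 0.0290) and on lane 8 alone (FDR 0.0231).

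The eye list had 17 higher and 6 lower of 40 (median log2FC 0.34). The homeobox factor rx3 marks the single eye field before the eyes bulge out, and it was at 4.12, 3.18, 4.56 and 4.74 CPM at E+ 18 hpf, against 58.5, 59.1, 54.7 and 51.6 CPM at E+ 12 hpf (log2FC -3.76 ± 0.18, FDR 3.40e-18). The eye field factor six7 fell further, with 1.87, 1.11, 0.289 and 1.95 CPM at E+ 18 hpf, against 75.9, 113, 102 and 90.3 CPM at E+ 12 hpf (log2FC -6.19 ± 0.30). Neither of these genes had overlapping groups, but the rule for naming the largest changes asked for that. OTX2, an early factor of forebrain, midbrain and eye, was lower (log2FC -1.49 ± 0.15), and MAB21L1, which acts in the optic cup and lens, was higher (log2FC 2.55 ± 0.25). The lens crystallin gene CRYBA2 ENSDARG00000041925 was at 6.67 to 10.1 CPM against 1.00 to 1.71 CPM (log2FC 2.74 ± 0.22), whereas the lens factor foxe3 was at 2.07 to 3.83 CPM and 1.96 to 3.00 CPM and not called.

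Placode and ear genes were divided, with 12 higher and 11 lower of 35 (median log2FC 0.21; 7 higher on lane 7 alone, 7 lower on lane 8 alone). The preplacodal genes DLX3, a homeobox factor (29.1 to 34.8 CPM against 60.7 to 68.1 CPM; log2FC -0.99 ± 0.11), and GATA3 (11.9 to 14.5 CPM against 57.3 to 71.2 CPM; log2FC -2.29 ± 0.12) were lower in every E+ 18 hpf pool, as was OTX1 of the forebrain and ear (log2FC -1.25 ± 0.13). In contrast, oc90, a matrix protein of the ear stones, was at 104, 106, 99.8 and 90.7 CPM at E+ 18 hpf, against 41.4, 22.8, 25.1 and 29.5 CPM at E+ 12 hpf (log2FC 1.75 ± 0.13), and the otic factor HMX3 was at 8.68 to 12.7 CPM against 0.223 to 3.03 CPM (log2FC 2.66 ± 0.31). SPARC, a matrix glycoprotein, was at 128 to 138 CPM against 19.2 to 34.4 CPM (log2FC 2.36 ± 0.13). The other ear stone gene, otomp, was at most at 1.69 CPM and was not called (log2FC 1.21 ± 0.65, FDR 0.146; 0.0308 without E+ 12 hpf replicate 1). PAX8, an early otic and kidney factor, and WNT1, a midbrain-hindbrain signal, had 7 and 11 reads over the 8 pools and were not tested.

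Between midbrain and hindbrain 19 of 36 genes fell and 11 rose (median log2FC -0.48). The factor irx7, which positions the hindbrain, was at 16.2, 16.7, 16.6 and 15.1 CPM at E+ 18 hpf, against 75.2, 90.3, 82.8 and 74.8 CPM at E+ 12 hpf (log2FC -2.32 ± 0.16), and the boundary genes her5 (log2FC -2.25 ± 0.30) and her11 (log2FC -2.22 ± 0.19), repressors that keep neurogenesis out of the boundary, were lower too. The boundary factors that maintain it went different ways. PAX2 ENSDARG00000028148 was at 99.3 to 106 CPM against 143 to 179 CPM (log2FC -0.69 ± 0.09), PAX5 at 7.08 to 12.4 CPM against 1.23 to 2.78 CPM (log2FC 2.23 ± 0.28) and EN2 ENSDARG00000038868 at 94.4, 100, 87.5 and 93.8 CPM against 58.7, 31.6, 40.7 and 45.5 CPM (log2FC 1.09 ± 0.16). The other EN2 gene, ENSDARG00000026599, had overlapping groups and an FDR of 0.0982 (log2FC -0.33 ± 0.16), a call that most alternatives did not keep. The cofactor gene MEIS2 (log2FC 1.61 ± 0.13) and the receptor gene EPHA4 ENSDARG00000010767 (log2FC 1.46 ± 0.16), which act in hindbrain segments, rose. EGR2, the factor of the 3rd and 5th hindbrain segments, was at 19.2, 15.5, 16.1 and 14.7 CPM at E+ 18 hpf, against 22.3, 24.9, 27.2 and 21.2 CPM at E+ 12 hpf (log2FC -0.55 ± 0.15, FDR 0.00447; 0.113 on lane 7 alone).

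In the notochord list 22 of 45 genes rose and 9 fell (median log2FC 0.42). The T-box factor tbxta was at 7.67 to 9.79 CPM at E+ 18 hpf, against 21.6 to 29.4 CPM at E+ 12 hpf (log2FC -1.58 ± 0.15), and the notochord homeobox gene noto fell by 1.65 ± 0.20 on the log2 scale. COL2A1 genes encode the fibrillar collagen of the sheath: ENSDARG00000069093 was at 404, 337, 422 and 451 CPM at E+ 18 hpf, against 91.9, 26.7, 43.5 and 60.1 CPM at E+ 12 hpf (log2FC 2.86 ± 0.20, FDR 3.33e-14), and ENSDARG00000011407 at 147 to 171 CPM against 22.4 to 44.8 CPM (log2FC 2.21 ± 0.12). The partner collagens col9a1b (log2FC 3.08 ± 0.13) and COL9A2 (log2FC 3.22 ± 0.19) and the matrix protein MATN4 (log2FC 3.69 ± 0.22) rose with them. E+ 12 hpf replicate 1 was the highest and replicate 2 the lowest of its group for both COL2A1 genes and COL9A2. Of the 2 Hedgehog ligand genes under the symbol SHH, ENSDARG00000038867 fell (2.21 to 3.76 CPM against 9.25 to 12.4 CPM; log2FC -1.79 ± 0.21) and ENSDARG00000068567 was at 25.7, 26.5, 22.6 and 23.4 CPM at E+ 18 hpf and 25.5, 21.0, 18.1 and 23.6 CPM at E+ 12 hpf, which overlapped (log2FC 0.16 ± 0.11, FDR 0.288).

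In the skin list 23 genes rose and 21 fell of 56 (median log2FC 0.05). The surface keratin krt4 was the most abundant of them, at 5756, 5875, 6357 and 6101 CPM at E+ 18 hpf, against 4597, 3466, 3425 and 3600 CPM at E+ 12 hpf (log2FC 0.67 ± 0.08, FDR 5.50e-09). The simple-epithelium keratin krt18a.1 was at 251, 235, 186 and 245 CPM at E+ 18 hpf, against 970, 1088, 971 and 1024 CPM at E+ 12 hpf (log2FC -2.14 ± 0.11, FDR 6.61e-18). These keratins thus moved in opposite directions without overlap. TP63, which maintains basal skin cells, was lower (74.2 to 82.8 CPM against 113 to 133 CPM; log2FC -0.61 ± 0.11), and the fibrillar collagen col1a1a was at 116, 137, 157 and 124 CPM at E+ 18 hpf, against 11.3, 2.67, 7.50 and 8.21 CPM at E+ 12 hpf (log2FC 4.16 ± 0.19). Other members included the sodium pump subunit ATP1B1 ENSDARG00000076833, which rose (10.7 to 15.7 CPM against 1.89 to 3.03 CPM), and ponzr5 (log2FC -2.56 ± 0.22) and the annexin ANXA1 (log2FC -2.02 ± 0.15), which fell. The hatching enzymes, proteases stored by the hatching gland until the egg envelope is opened, were higher: he1.2 was at 755, 715, 896 and 765 CPM at E+ 18 hpf, against 234, 88.9, 119 and 164 CPM at E+ 12 hpf (log2FC 2.37 ± 0.22), and he1.1 had a log2FC of 1.95 ± 0.19. For both enzymes replicate 1 was the highest and replicate 2 the lowest of the E+ 12 hpf pools. Not all rising genes had this order: replicate 1 was the lowest for myhz2 (0.856 CPM), and replicate 3 the highest for MYL11 ENSDARG00000053254 (25.5 CPM).

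Endoderm genes more often fell, with 13 lower and 8 higher of 32 (median log2FC -0.46). SOX17, the factor of early endoderm, was at 0.855, 0.212, 0.868 and 0.325 CPM at E+ 18 hpf, against 5.35, 13.4, 7.11 and 6.82 CPM at E+ 12 hpf (log2FC -3.90 ± 0.53), and foxa3, expressed along the gut tube, was at 11.5 to 14.9 CPM against 28.7 to 47.4 CPM (log2FC -1.35 ± 0.18). Members that rose included PROX1, a factor of liver and lens (log2FC 1.88 ± 0.17), AGR2, a protein of mucus-secreting cells (log2FC 2.26 ± 0.28), and the hormone gene ins (log2FC 3.80). The ins gene did not have both at least 5 CPM in every E+ 18 hpf pool and groups without overlap, so its fold is less certain. The caudal factor cdx4, which patterns the trunk and tail, was at 72.9, 80.3, 67.6 and 75.1 CPM at E+ 18 hpf, against 274, 325, 298 and 294 CPM at E+ 12 hpf (log2FC -2.01 ± 0.11).

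Genes of the pronephros, the embryonic kidney, gave 16 higher and 9 lower of 38 (median log2FC 0.27), and transporters were the steepest. SLC12A3, the salt cotransporter of the distal tubule, was at 13.4, 13.3, 13.1 and 18.8 CPM at E+ 18 hpf, against 0.642, 0.223, 0.438 and 0.189 CPM at E+ 12 hpf (log2FC 5.24 ± 0.28, FDR 2.39e-17). The sodium pump subunit atp1a1a.4 was at 90.6, 125, 111 and 91.2 CPM at E+ 18 hpf, against 8.13, 1.39, 3.17 and 5.49 CPM at E+ 12 hpf (log2FC 4.52 ± 0.24), and the tubule cadherin CDH17 was at 8.71 to 10.9 CPM against 0.244 to 1.20 CPM (log2FC 3.85 ± 0.25). PAX2 ENSDARG00000032578 was at most at 1.09 CPM in every pool and not called.

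No gene of the germ plasm and germ cell list rose, and 12 of 27 fell (median log2FC -0.81). On lane 7 alone 7 fell, and 1 rose on lane 8 alone and without E+ 12 hpf replicate 3. The list joins transcripts of the oocyte and of germ cells. Of the oocyte genes, log2FC was -2.06 for buc, the organizer of germ plasm, -2.07 for ZAR1L and -1.66 for the egg envelope gene zp3b and -1.01 for the linker histone gene h1m. Of the germ cell genes, DND1, which protects germ cell mRNAs, was at 1.56 to 2.82 CPM against 4.29 to 5.72 CPM (log2FC -1.21 ± 0.29), DDX4 was at 7.70, 6.89, 8.03 and 7.08 CPM at E+ 18 hpf and 7.76, 12.3, 14.0 and 8.53 CPM at E+ 12 hpf with overlapping groups (log2FC -0.52 ± 0.17, FDR 0.0156; 0.225 on lane 7 and 0.101 on lane 8 alone), and NANOS3 was not called (log2FC -0.38 ± 0.23, FDR 0.200).

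Genes shared by all dividing cells changed little in size. Of 64 replication and division genes 33 fell and 6 rose, the median log2FC was -0.25, and none changed 2-fold. On lane 8 alone 21 fell, and on lane 7 alone 3 rose. CCNB1, the mitotic cyclin, was at 67.2, 68.3, 64.8 and 68.0 CPM at E+ 18 hpf, against 101, 112, 92.2 and 102 CPM at E+ 12 hpf (log2FC -0.60 ± 0.08, FDR 3.31e-07), and the replication licensing factor CDT1 had the largest fall (8.10 to 9.64 CPM against 11.6 to 20.7 CPM; log2FC -0.86 ± 0.17). The helicase subunit MCM5 was lower (log2FC -0.34 ± 0.10, FDR 0.00520; 0.131 on lane 8 alone), and PCNA, the sliding clamp of DNA polymerase, was at 527 to 591 CPM at E+ 18 hpf and 472 to 560 CPM at E+ 12 hpf and not called. The largest rise was that of the G1 cyclin CCND2, at 34.0 to 40.7 CPM against 16.5 to 24.1 CPM (log2FC 0.90 ± 0.13). The kinase aurka (log2FC -0.67 ± 0.12) and the helicase subunit MCM7 (log2FC -0.72 ± 0.18) fell, and GINS2 (log2FC 0.51 ± 0.15) and POLA1 (log2FC 0.35 ± 0.09), both of the replication machinery, rose.

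Ribosomal protein genes rose as a block. Of 77 genes 75 rose, and the quartiles of the list were log2FC 0.54 and 0.70, with a median of 0.60 against 0.02 for all genes. RPS2, a protein of the small subunit, was at 3881, 5055, 4637 and 4143 CPM at E+ 18 hpf, against 2594, 2212, 2326 and 2428 CPM at E+ 12 hpf (log2FC 0.89 ± 0.08, FDR 6.14e-12), and RPS10 was at 1147 to 1392 CPM against 666 to 810 CPM (log2FC 0.84 ± 0.07). For 71 of the 77 genes all E+ 18 hpf pools lay above all E+ 12 hpf pools. The largest rise was that of rps11l, a copy at a far lower level (22.5 to 54.6 CPM against 7.79 to 18.1 CPM; log2FC 1.54 ± 0.32). The exceptions to the rise were RPL7L1, a relative of a large subunit protein that fell (log2FC -0.45), and rps27l, which was not called (log2FC -0.11). Under the other scalings the list's median was between 0.59 and 0.62 and the median of all genes between 0.00 and 0.04. In each, 75 genes rose. Every one of these scalings sets the bulk of genes near no change, so the median of all genes was largely fixed in advance. The rise is thus relative to other genes, and a change in total mRNA could not be seen. The size depended more on the pools: 68 rose on lane 7 alone (median 0.49) and 75 on lane 8 alone (median 0.73). The 13 mitochondrially encoded mRNAs showed no such shift (3 higher, 1 lower, median -0.02; MT-CO3 0.43 ± 0.10 higher, a call lost on lane 7 alone at FDR 0.160, and mt-nd4l at log2FC -0.65 ± 0.15) and took 1.40% ± 0.153 of gene counts at E+ 18 hpf and 1.32% ± 0.195 at E+ 12 hpf (SD, n = 4 each; exact two-sided permutation p = 0.571).

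**Figure D3:**
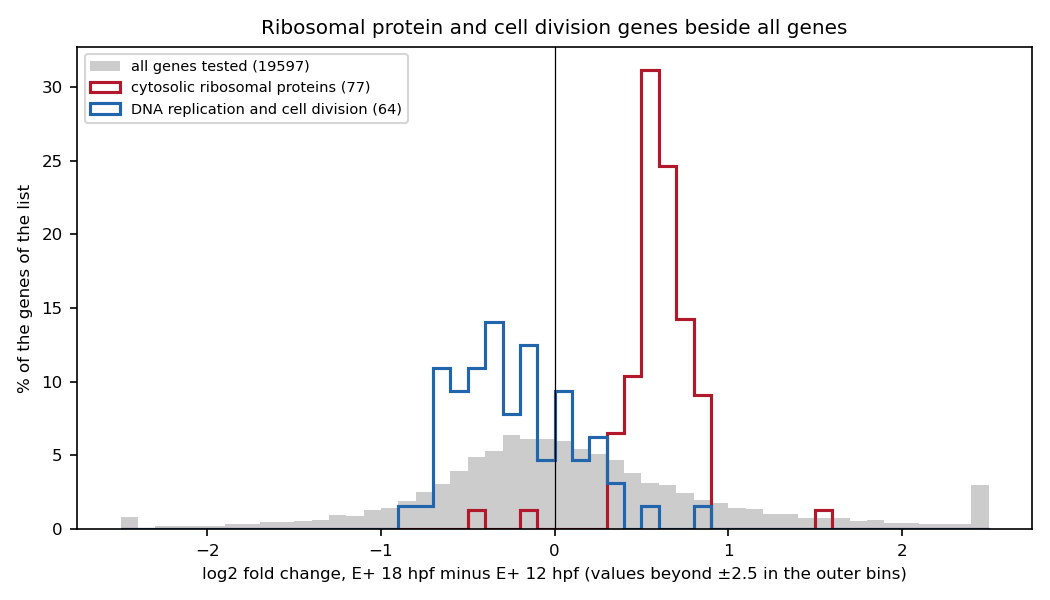
Share of genes (%) in bins of log2 fold change (E+ 18 hpf minus E+ 12 hpf, 0.1 wide) for cytosolic ribosomal proteins (red), replication and division genes (blue) and all 19597 genes tested (grey). The ribosomal list sits in a narrow peak around 0.60, and the division list lies mostly below 0 with no gene beyond 1 in size.

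Metabolic lists moved by member rather than as blocks. Of 34 glycolysis genes 14 rose and 4 fell (median log2FC 0.42; 8 rose on lane 7 alone). The 2 aldolase genes under the symbol ALDOA went in opposite directions: ENSDARG00000034470 was at 88.1, 70.6, 103 and 86.7 CPM at E+ 18 hpf, against 11.5, 3.73, 6.82 and 9.66 CPM at E+ 12 hpf (log2FC 3.46 ± 0.17), and ENSDARG00000011665 was at 136, 106, 127 and 118 CPM at E+ 18 hpf, against 223, 195, 169 and 234 CPM at E+ 12 hpf (log2FC -0.75 ± 0.12). The sum over both copies therefore changed much less than either. GAPDH was higher (log2FC 0.82 ± 0.08), PKLR, the pyruvate kinase of liver and red cells, was 2.13 ± 0.28 log2 units higher, and PFKFB3, which makes the activator of phosphofructokinase, was at 1.66 to 3.12 CPM against 6.38 to 12.7 CPM (log2FC -1.85 ± 0.37). The relative GAPDHS rose (log2FC 1.13 ± 0.37) and the lactate transporter SLC16A3 fell (log2FC -1.82 ± 0.35). SLC2A1 ENSDARG00000001437, a glucose transporter, rose on 136 reads over the 8 pools (FDR 1.41e-07), too few for a firm fold. LDHA had overlapping groups and was not called (log2FC -0.17 ± 0.28).

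The yolk layer exports lipid and vitamin E through lipoproteins. In the list of yolk lipoprotein and vitamin E carriage genes, 19 of 36 rose and 4 fell (median log2FC 0.37). The list also held genes that are not lipoprotein genes, such as TTPA. The apolipoprotein B gene apobb.1 was at 1222, 1463, 1246 and 1136 CPM at E+ 18 hpf, against 465, 431, 513 and 629 CPM at E+ 12 hpf (log2FC 1.31 ± 0.12, FDR 2.02e-11). MTTP, the transfer protein that loads lipid onto apolipoprotein B, moved against it, at 43.0, 45.8, 37.3 and 36.4 CPM at E+ 18 hpf, against 94.3, 104, 100 and 91.4 CPM at E+ 12 hpf (log2FC -1.26 ± 0.12). The apolipoprotein E genes also diverged: apoeb was at 1187 to 1257 CPM against 2397 to 3128 CPM (log2FC -1.13 ± 0.08) and apoea at 7.41 to 8.74 CPM against 0.223 to 2.14 CPM (log2FC 3.13 ± 0.38). The apolipoprotein gene apoa4a rose (log2FC 2.80 ± 0.25) and the lipoprotein receptor gene SCARB1 fell (log2FC -0.79 ± 0.16). For apoa1b no difference was called (834 to 1126 CPM and 774 to 1126 CPM; log2FC 0.23 ± 0.12, FDR 0.126; 0.00955 without E+ 12 hpf replicate 1), and TTPA, the alpha-tocopherol transfer protein, stayed at 0.362 to 0.777 CPM and 0.292 to 0.535 CPM, too low for a difference to be detected (FDR 0.636). The fibrinogen genes fga (log2FC 4.47 ± 0.27) and FGB (log2FC 3.48 ± 0.22), blood clotting proteins of the yolk layer and liver, were at 22.1 to 32.2 CPM across the E+ 18 hpf pools and at most at 3.79 CPM at E+ 12 hpf.

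Antioxidant genes had 16 higher and 7 lower of 31 (median log2FC 0.29). Members that rose included PRDX3, the mitochondrial peroxiredoxin (31.8 to 40.3 CPM against 13.4 to 15.2 CPM; log2FC 1.36 ± 0.14), GPX4, which reduces lipid peroxides (log2FC 0.29 ± 0.09, not called on lane 7 alone at FDR 0.261), and NFE2L2, the gene of the Nrf2 factor (log2FC 1.15 ± 0.20). The heme oxygenase gene HMOX1 rose (log2FC 1.03 ± 0.18), KEAP1, the protein that holds Nrf2 down, fell (log2FC -0.63 ± 0.14), and SOD1 was at 16.0 to 19.5 CPM and 16.5 to 20.7 CPM and not called. NQO1, a classical Nrf2 target, fell, with 28.7, 30.9, 26.3 and 28.7 CPM at E+ 18 hpf, against 65.9, 46.5, 65.3 and 65.6 CPM at E+ 12 hpf (log2FC -1.08 ± 0.12), as did the ferritin gene fthl27 at 169 to 217 CPM against 530 to 691 CPM (log2FC -1.64 ± 0.11). On lane 7 alone 4 genes of the list rose. Of 36 chaperone genes 21 rose and 2 fell (median 0.39). The muscle Hsp90 gene hsp90aa1.1 was at 703, 706, 763 and 700 CPM at E+ 18 hpf, against 195, 113, 156 and 161 CPM at E+ 12 hpf (log2FC 2.20 ± 0.15, FDR 3.71e-14), and HSP90AA1 (log2FC 1.94 ± 0.17) and the small heat shock gene HSPB8 (log2FC 1.91 ± 0.15) rose with it. The list's members that fell were HSPB1 (log2FC -3.96 ± 0.12), described with the contractile genes, and XBP1, a factor of the unfolded protein response (log2FC -0.27 ± 0.07). The constitutive HSPA8 ENSDARG00000068992 was at 1916 to 2121 CPM and 1749 to 1970 CPM and not called (log2FC 0.14 ± 0.08), and neither was HSPA8 ENSDARG00000037403, at most at 2.12 CPM.

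The hox genes, whose order along their clusters matches the head-to-tail order of their domains, rose mainly at the tail end. Of 44 genes tested 26 rose and 9 fell (median log2FC 0.65). In paralog groups 9 to 13, 16 of 22 rose and 4 fell (median 1.23), in groups 1 to 4, 6 of 11 rose and 2 fell (median 0.65), and in groups 5 to 8, 4 of 11 rose and 3 fell (median -0.24). All 5 genes of group 11 and both genes of group 12 rose, as did 5 of 6 genes of group 13. Several of them averaged below 1 CPM at E+ 12 hpf, such as HOXC12 (0.180 CPM) and hoxd13a (0.253 CPM). The pools of hoxa13a and hoxa13b overlapped. HOXC13 ENSDARG00000070353 was at 9.33, 9.27, 7.96 and 7.15 CPM at E+ 18 hpf, against 1.28, 1.95, 1.17 and 1.33 CPM at E+ 12 hpf (log2FC 2.55 ± 0.29), and HOXD12 was at 12.5, 19.3, 11.9 and 13.3 CPM at E+ 18 hpf, against 5.67, 1.62, 1.32 and 4.29 CPM at E+ 12 hpf (log2FC 2.16 ± 0.28). HOXA11 ENSDARG00000104162 was at 5.20 to 7.42 CPM against 0.682 to 3.28 CPM (log2FC 2.03 ± 0.37), and HOXA11 ENSDARG00000007009 at 78.7 to 91.9 CPM against 12.9 to 45.4 CPM (log2FC 1.66). Group 9 broke the order, with 3 of 5 genes lower and 1 higher. At the head end, where more genes rose than fell, hoxb1b, the early hindbrain gene of the set, was lower. It was at 51.5, 53.1, 52.4 and 55.3 CPM at E+ 18 hpf, against 114, 130, 108 and 112 CPM at E+ 12 hpf (log2FC -1.13 ± 0.10). HOXA3 rose (log2FC 1.34 ± 0.12), and HOXB7 of the trunk fell by 0.84 ± 0.13 on the log2 scale. Lane 8 pools alone gave 16 rising hox genes.

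**Figure D4:**
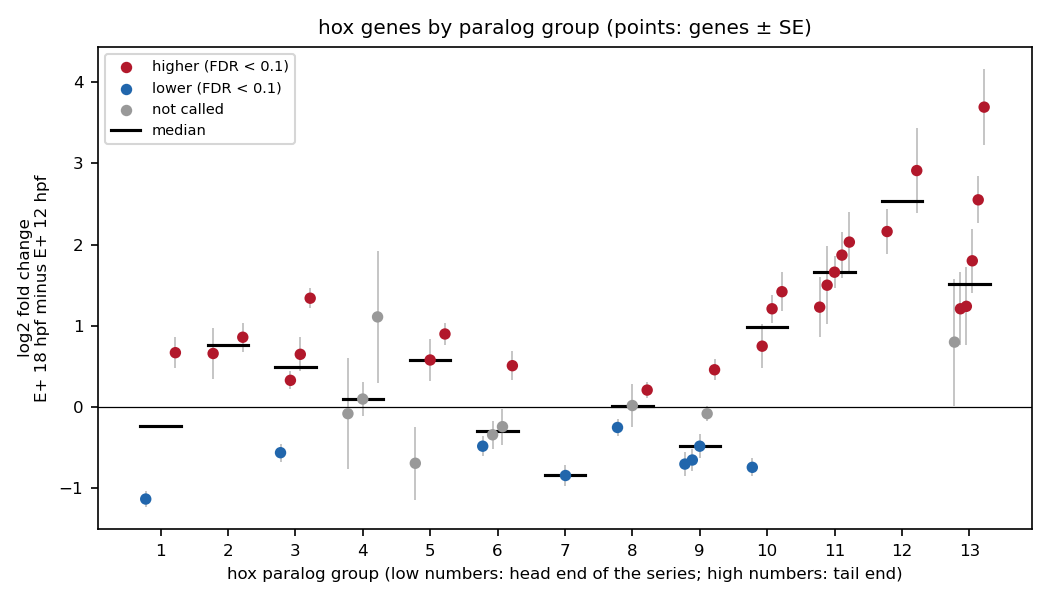
Log2 fold change (E+ 18 hpf minus E+ 12 hpf, points ± SE) of 44 hox genes by paralog group, with the group median as a bar. In groups 10 to 13 every gene except hoxb10a lies above 0, and the medians of groups 1, 6, 7 and 9 lie below 0.

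The same step in E– embryos compares no pool that the E+ step compares, but both share the gene filter, scaling and spread of the fit. In E– embryos 2283 genes (11.6%) were at least 2-fold higher and 984 (5.02%) at least 2-fold lower at 18 hpf. Of these, 1659 were also at least 2-fold higher in E+ embryos, which was 72.7% of the E– genes and 73.6% of the E+ genes, and 621 were also at least 2-fold lower, 63.1% and 52.2%. At any size, 4259 genes (21.7%) were higher and 4003 (20.4%) lower at 18 hpf in E– embryos. Among these calls, 4 genes called higher in E+ embryos were called lower in E– embryos, and 4 called lower in E+ embryos were called higher in E– embryos.

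A direct test of the difference between the steps called 8 genes (0.0408% of those tested), and 1479 genes (7.55%) had an unadjusted p under 0.05. NR2F1 ENSDARG00000017168, a nuclear receptor of the hindbrain, was at 22.5, 21.0, 24.5 and 24.4 CPM in E– 18 hpf pools and 0.128, 0.449, 0.702 and 0.351 CPM in E– 12 hpf pools. It was at 20.1, 16.7, 25.8 and 19.8 CPM in E+ 18 hpf pools and 3.69, 0.669, 0.828 and 2.40 CPM in E+ 12 hpf pools (difference of steps 2.38 ± 0.47 on the log2 scale, FDR 0.0560). The E– and E+ groups overlapped at 18 hpf and also at 12 hpf, and the 2 highest E+ 12 hpf values were those of replicates 1 and 4. COL1A1 ENSDARG00000035809 (step 4.98 in E– and 3.85 in E+) averaged 77.6 CPM in E– 18 hpf and 2.47 CPM in E– 12 hpf pools. It averaged 63.0 CPM in E+ 18 hpf and 4.34 CPM in E+ 12 hpf pools. The E– mean was thus higher at 18 hpf and lower at 12 hpf, where the groups overlapped (E– replicate 3 at 3.30 CPM, E+ replicate 2 at 3.01 CPM). The difference between diets at a single time was not tested here. For si:dkey-154b15.1 the E– step was 0.03 and the E+ step -1.94, for the splicing regulator rbm4.1 0.05 and -0.86, for tia1l, an RNA-binding protein gene, -0.74 and -1.49, and for the mitochondrial ribosome gene MRPS2 0.36 and -0.73. The inhibitor of NF-kB nfkbiaa was at 2.49 ± 0.693 CPM in E– 18 hpf pools and 4.43 ± 1.37 CPM in E– 12 hpf pools, and at 6.33 ± 2.43 CPM in E+ 18 hpf pools and 2.61 ± 0.515 CPM in E+ 12 hpf pools (SD, n = 4 each). The number called was 0 without E+ 12 hpf replicate 1 or without E+ 18 hpf replicate 2, and 93 without E+ 12 hpf replicate 2, so it rests on single pools. No gene of the 28 lists was among the 8.

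**Figure D5:**
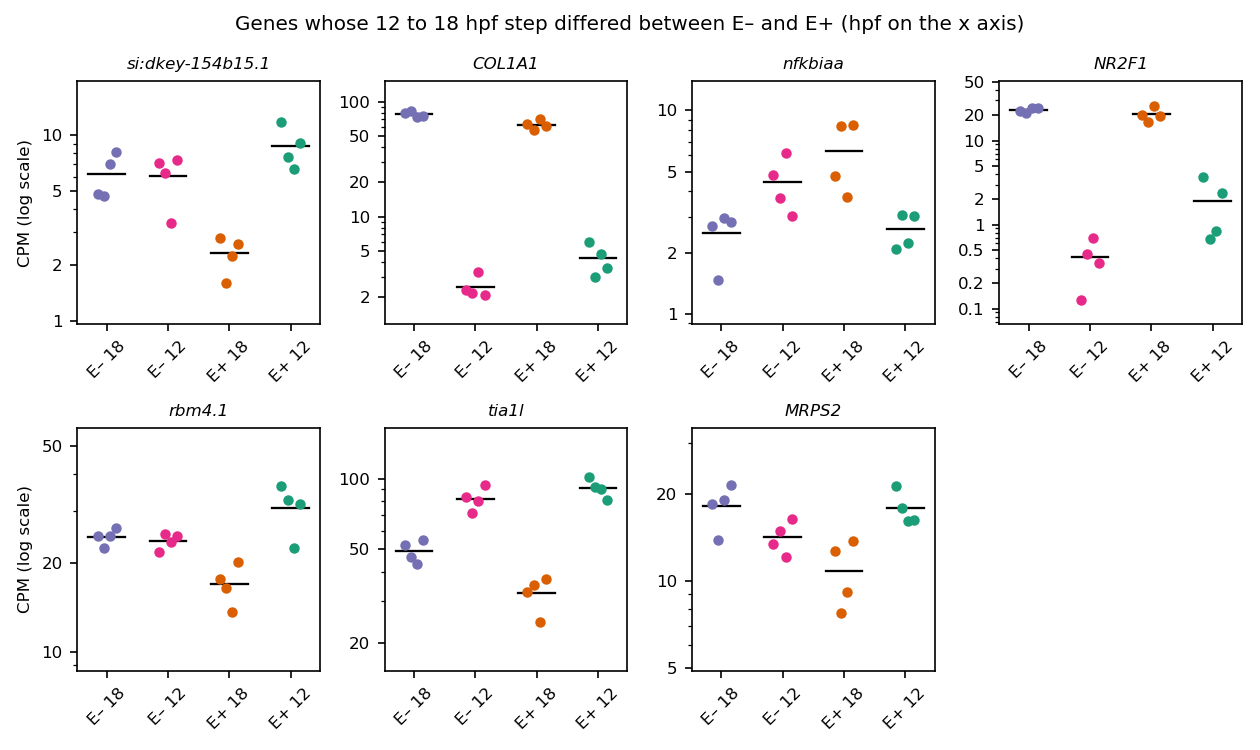
Normalized counts (CPM, log scale) in each E– 18 hpf, E– 12 hpf, E+ 18 hpf and E+ 12 hpf pool for 7 genes whose step differed between E– and E+ embryos, with the mean as a bar. For COL1A1 and NR2F1 the E– 12 hpf pools average lower than the E+ 12 hpf pools but overlap them. At 18 hpf the E– pools lie above the E+ pools for COL1A1 and overlap them for NR2F1.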

How the data were processed

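QuantSeq 3′ mRNA libraries of 24 pools were compared, of which the 8 E+ pools at 18 and 12 hpf are the subject. The authors trimmed reads with bbduk, aligned them with STAR 2.7.3a to GRCz11 and deposited the raw counts of reads per gene (Ensembl identifiers). Strand setting of the counting was not given in the sources used here, so overlapping antisense genes are uncertain. Rows tallying unassigned reads (39.1% to 47.5% of reads per pool) were dropped, and 0 deposited columns were unused. The unassigned share was 43.7% ± 0.962 at E+ 18 hpf and 41.3% ± 1.52 at E+ 12 hpf (SD, n = 4 each). The exact permutation test gave p = 0.0571, adjusted 0.0857. The difference was 4.30 percentage points on lane 7 and 0.447 on lane 8. Of 32520 genes, 19597 passed edgeR's filterByExpr. Counts were scaled by TMMwsp, fitted over all 6 groups and tested with edgeR 4.0.16 (quasi-likelihood F-test, FDR under 0.1) in R 4.3.3. SE is the log2FC divided by the root of F. DESeq2 1.42.0, other scalings, filters and left-out pools were alternatives. Symbols came from a table pairing 29201 identifiers, and 959 of 987 listed symbols matched. Named were fixed marker genes, up to 3 genes per list and direction, and the 12 largest changes each way (at least 5 CPM in each higher pool, no overlap). Others were picked after their values were seen. The gene lists and members were chosen with earlier results of these data known. In simulated counts of 19179 genes only 200 genes were changed. Of these, 61 of 100 changed by log2FC 1 and 17 of 100 changed by 0.5 were recovered, with 9 false calls. Far more genes were called in the data, and the FDR cutoff depends on that number. The simulated rates therefore do not measure how many changes this comparison missed. A few genes that these rules name are not reported here.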

Additional observations from a re-analysis of the deposited data

Results flagged for a closer look

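Pools were compared within each group of 4 for 6 pool-level measures and 202 genes, which gave 416 groups. In 22 of them 1 pool stood apart from the other 3, where chance alone gives about 1 in 20 groups, or 20.8. The value given for each is the gap to the nearest pool as a share of the group's range.

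Among E+ 18 hpf pools, replicate 1 was apart for genes with a read at equal depth (0.834; 23432 against 22843 to 22941), MYL7 (0.845) and FABP7 (0.838; 21.3 CPM against 36.4 to 39.3). Replicate 2 was apart for MITF ENSDARG00000003732 (0.852) and six4b (0.860). Replicate 3 was apart for TNNT2 ENSDARG00000020610 (0.851), hsp90aa1.1 (0.899), actc1b (0.887), pmela (0.936; 8.54 CPM against 5.56 to 5.75) and PFKFB3 (0.833). Replicate 4 was apart for tbx6 (0.842), pou5f3 (0.912), RYR1 ENSDARG00000023797 (0.905), otomp (0.834) and SLC12A3 (0.938; 18.8 CPM against 13.1 to 13.4).

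Among E+ 12 hpf pools, replicate 1 was apart for alas2 (0.881), krt4 (0.851; 4597 CPM against 3425 to 3600) and col9a1b (0.845). Replicate 2 was apart for foxa3 (0.946; 47.4 CPM against 28.7 to 29.7), GSC (0.864; 19.3 CPM against 8.13 to 9.64), PKLR (0.969; 2.62 CPM against 5.37 to 5.46) and NQO1 (0.972; 46.5 CPM against 65.3 to 65.9). No E+ 12 hpf pool of replicate 3 or 4 was apart.

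The step between 12 and 18 hpf differed between E– and E+ embryos for 8 genes by a direct test, of which 7 are given (E– step minus E+ step on the log2 scale): 1.97 for si:dkey-154b15.1, 1.13 for COL1A1, -2.11 for nfkbiaa, 2.38 for NR2F1, 0.90 for rbm4.1, 0.75 for tia1l and 1.08 for MRPS2.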

How the results depend on the processing

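The counts of genes higher or lower at 18 hpf, at any size and at least 2-fold, stayed within 1.5 times their size under other scalings, other gene filters, DESeq2, other sets of pools in the fit, a lane term and an FDR under 0.05. The exceptions were an FDR under 0.01 (2939 higher, 2548 lower) and the pools of lane 8 alone (2736 lower). Leaving out 1 pool gave 4114 to 4431 higher genes, 3794 to 3973 lower, 2159 to 2367 at least 2-fold higher and 1131 to 1220 at least 2-fold lower. Of 202 named genes 184 were called, 171 of these kept the call under every one of the 21 alternatives that gave them a value (a few filters and pool sets did not test them all), 13 lost it under at least 1, and none changed sign.

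The number of genes whose step differed between E– and E+ embryos (8) depended on the setting. It was 15 with TMM scaling, 104 with DESeq2, 118 with all genes that had a read, 3 at an FDR under 0.05, 0 at an FDR under 0.01 and 0 on either lane alone. Leaving out 1 pool gave 0 to 93. The cause was not tested.

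Deviations of pools with the same replicate number were close to uncorrelated (r of -0.04 to 0.006), and those with different numbers gave r of -0.0831 to 0.0767. Such correlations cannot show that pools with the same number shared no clutch or batch. Replicates 1 and 2 were on lane 7 and replicates 3 and 4 on lane 8 at both times. With the replicate number as a block, 4486 genes were higher, 4102 lower, and 17 differed in their step between diets.

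Depth limits genes near or below 1 CPM, which is 12 to 21 reads per pool. With 4 pools a group, no exact test of a single measure can go below p = 0.0286. Leaving out lanes or pools also leaves fewer samples to the test.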
